A study of Mus musculus with 9 samples.

Results

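Glycolysis splits glucose into pyruvate in the cytosol, and the fate of that pyruvate is then set between reduction to lactate and entry into mitochondria as acetyl-CoA. Here 33 genes of this route were followed across sorted luminal cells of the adult mouse mammary gland. They were chosen by name, as the enzymes and isoenzymes of each step from hexokinase to pyruvate kinase, the enzymes that make and break the regulator fructose 2,6-bisphosphate, fructose bisphosphatase, lactate dehydrogenase, the pyruvate dehydrogenase complex and the kinases that inhibit it. All 33 were found among the 27179 genes of the deposited count table, and 32 passed the filter on low counts that left 15910 genes for testing. The gene that did not pass was Hk3, with 20 counts in HR- LP replicate 1 and none in the other libraries. Earlier results of these data were known when the 33 genes were chosen. Their share of called genes is therefore a description and not a test.

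RNA had been sequenced from 3 populations, with 3 libraries each, after cells carrying lineage markers were removed by flow cytometry. The names used here are the abbreviations of the labels. HR- LP cells were CD14 positive and PR-cre/YFP negative, and HR+ LP cells were CD14 positive and PR-cre/YFP positive. ML cells were CD14 negative, and their labels call them PR-cre/YFP positive, while the design text of the series calls them YFP negative, so the sample labels were followed. All came from adult mammary tissue. The labels name the driver of YFP as PR-cre. Of the strain, the reporter allele, the exact age and the number of animals behind a library the sources used here say nothing, so p-values measure only the spread between these libraries, which may be technical.

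The gate genes followed the sort. Cd14 ranged from 996 to 1180 CPM (counts scaled to a common library total) in HR- LP, from 284 to 348 in HR+ LP and from 18.3 to 30.3 in ML. Pgr, which encodes the progesterone receptor, lay between 6.12 and 15.8, between 204 and 329, and between 276 and 557 CPM. Libraries held 27219103 to 108119756 counts, and libraries of 1 population correlated at 0.9284 to 0.9764 across genes. The summed level of 8 luminal keratin and junction genes was 13798 to 18427 CPM over all libraries. Basal markers summed to 37.9 to 74.9 CPM in HR- LP and 25.5 to 43.4 CPM in the other two populations. Myeloid markers summed to 10.6 to 13.7, 5.54 to 7.67 and 3.72 to 4.64 CPM, in the order HR- LP, HR+ LP and ML, with Itgam, Adgre1 and S100a9 at 0 in all HR- LP libraries. Fibroblast markers summed to 73.7 to 121, 61.3 to 268 and 106 to 318 CPM, with Dcn higher in HR+ LP and ML than in HR- LP (log2 3.85 and 4.09). Of the 6 fibroblast markers, the other 5 were lower in HR+ LP than in HR- LP (median of the 6 -2.43) and 3 were lower in ML than in HR- LP (median -1.73). Erythrocyte markers summed to 0.343 to 1.57, 3.84 to 11.7 and 4.62 to 12.4 CPM. Endothelial, lymphoid, adipocyte and skeletal muscle markers each stayed at or under 9.14 CPM in sum, with Cd3g, Lep, Adipoq and Pvalb among those at 0 in at least 1 population. The part of these other cells in the differences below was not tested. In bulk RNA, fewer cells of a type and less RNA per cell cannot be told apart.

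Each step of glycolysis is usually served by a small family of isoenzymes that differ in tissue, regulation and affinity for substrate. Hexokinase traps glucose in the cell, phosphofructokinase is the main point of control, and pyruvate kinase makes the last ATP. Lactate dehydrogenase recycles NADH by turning pyruvate into lactate and back, while pyruvate dehydrogenase commits pyruvate to the mitochondrion and is switched off by its kinases. In the mammary gland glucose also feeds lactose and fat synthesis in lactation.

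The promoters of the 5 genes with the largest called differences between ML and HR- LP are shown first. Hk2 (chr6:82725025-82774454) and Pfkfb4 (chr9:108988272-109032236) were higher in HR+ LP and ML than in HR- LP, and Aldoc (chr11:78323073-78327781), Ldhb (chr6:142490249-142507957) and Pdk4 (chr6:5483351-5496278) were lower. Each sequence holds the 250 bases before a transcription start in RefSeq (GRCm38.p6, the build of the files, mm10), written 5′ to 3′ on the strand of the gene. Capitals mark ACGTG or GCGTG, the core recognised by hypoxia-inducible factors, or its reverse complement. The intervals are chr6:82774455-82774704 on the minus strand for Hk2, chr9:108991652-108991901 on the plus strand for Pfkfb4 and chr11:78322823-78323072 on the plus strand for Aldoc. Those of Ldhb and Pdk4 are chr6:142507958-142508207 and chr6:5496279-5496528, both on the minus strand.
Hk2: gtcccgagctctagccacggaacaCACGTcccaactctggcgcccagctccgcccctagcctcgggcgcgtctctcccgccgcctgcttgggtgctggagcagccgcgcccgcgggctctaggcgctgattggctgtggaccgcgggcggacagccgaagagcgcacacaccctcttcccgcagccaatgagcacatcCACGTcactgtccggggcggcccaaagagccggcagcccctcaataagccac
Pfkfb4: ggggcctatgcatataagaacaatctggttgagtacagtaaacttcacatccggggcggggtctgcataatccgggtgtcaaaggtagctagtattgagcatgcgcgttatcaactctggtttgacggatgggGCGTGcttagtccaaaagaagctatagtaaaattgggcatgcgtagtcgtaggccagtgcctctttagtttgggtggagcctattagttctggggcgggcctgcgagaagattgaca
Aldoc: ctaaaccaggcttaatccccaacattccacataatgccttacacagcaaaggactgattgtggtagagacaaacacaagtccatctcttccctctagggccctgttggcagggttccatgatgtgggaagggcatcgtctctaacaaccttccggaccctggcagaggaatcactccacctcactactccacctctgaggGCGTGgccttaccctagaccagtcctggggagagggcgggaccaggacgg
Ldhb: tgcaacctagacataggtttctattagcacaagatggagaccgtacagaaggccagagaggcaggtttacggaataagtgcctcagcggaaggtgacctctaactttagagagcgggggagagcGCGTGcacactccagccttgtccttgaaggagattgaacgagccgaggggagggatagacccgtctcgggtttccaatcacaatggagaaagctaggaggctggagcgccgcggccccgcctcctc
Pdk4: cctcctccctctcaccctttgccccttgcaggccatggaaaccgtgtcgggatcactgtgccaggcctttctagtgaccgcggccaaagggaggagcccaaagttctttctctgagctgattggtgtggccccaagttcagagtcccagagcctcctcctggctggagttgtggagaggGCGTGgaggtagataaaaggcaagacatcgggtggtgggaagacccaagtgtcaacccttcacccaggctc

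The Hk2 window holds 2 such matches, and the windows of Pfkfb4, Aldoc, Ldhb and Pdk4 hold 1 each, so genes that were higher and genes that were lower both carry the letters. In windows of 250 bases before and 50 after the start, all 33 genes were matched, with 52 windows in all, and 37 of the 52 (71.2%) held ACGTG or GCGTG on either strand. Over all 32851 RefSeq windows of this length the share was 43.8%. The E-box CACGTG, which contains ACGTG and so overlaps it, was in 6 of the 52 windows (11.5%) against 7.15% of all windows. Several genes have more than 1 window with overlapping bases, so windows are not independent, and a match is a description of letters and not of binding.

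The 33 genes together took 0.369% ± 0.0367 of all counts in HR- LP, 0.449% ± 0.0116 in HR+ LP and 0.479% ± 0.0315 in ML (SD, n = 3). Within this slightly larger total, genes moved in both directions. Between HR+ LP and HR- LP, 8 of the 32 tested genes were higher (25.0%, against 17.2% of all tested genes) and 8 were lower (25.0%, against 12.8%), by edgeR's quasi-likelihood test with Benjamini-Hochberg adjustment at 0.05. Their median log2 fold change was 0.19 and that of all tested genes 0.01, with median absolute values of 0.63 and 0.53. The higher genes were Hk2, Pfkfb2, Pfkfb3, Pfkfb4, Tpi1, Pgam1, Eno2 and Pkm. The lower genes were Pfkl, Pfkp, Aldoc, Pgk1, Eno1, Ldhb, Pdk1 and Pdk4. The count of lower genes rested on small margins. It was 5 without HR- LP replicate 1 or replicate 2, 4 without HR+ LP replicate 1 or replicate 2 and 3 without HR+ LP replicate 3. With library totals in place of TMM factors, which moved the median of all genes by 0.11, 9 were higher and 4 lower, and with only the compared populations in the fit 5 were lower. Without HR- LP replicate 3, in which Hk2 and Pfkp were highest and Pdk4 lowest of their group, both counts were 8. The number of lower genes over the whole table moved as well. It was 2033 in the main fit, and 2290 and 1599 without HR- LP replicates 1 and 2. Without HR+ LP replicates 1, 2 and 3 it was 1329, 1211 and 1486. With library totals it was 1535, and with only the compared populations 1739.

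ML and HR+ LP were much closer. None of the 32 genes was higher in ML by edgeR (0.0943% of all tested genes were), 1 was at an unadjusted p under 0.05, and DESeq2 and limma voom also called none. Aldoc, Ldhb, Pdk4 and Pfkp were lower, which is 12.5% against 6.70% of all tested genes. The median log2 fold change was -0.01 (all tested genes 0.01) and the median absolute value 0.20 (0.23). Same-numbered libraries of these populations deviated together weakly, with correlations of 0.121 to 0.189 across genes. With the replicate number as a block the counts were still 0 and 4, while 71 genes in place of 15 were higher over the whole table. Between ML and HR- LP, 10 genes were higher and 10 lower, 31.2% in each direction, against 23.3% and 21.3% of all tested genes. The median log2 fold change was 0.33 (all tested genes 0.03) and the median absolute value 0.81 (0.70). The 8 genes higher in HR+ LP than in HR- LP were higher here too, joined by Pfkm and Dlat, and the 8 lower genes were joined by Gapdh and Ldha. These comparisons share the HR- LP libraries. With library totals alone, which moved the median of all genes by 0.16 here, 13 were higher and 8 lower. Over the whole table these totals gave 4463 higher and 2801 lower genes, in place of 3700 and 3389.

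**Figure D1:**
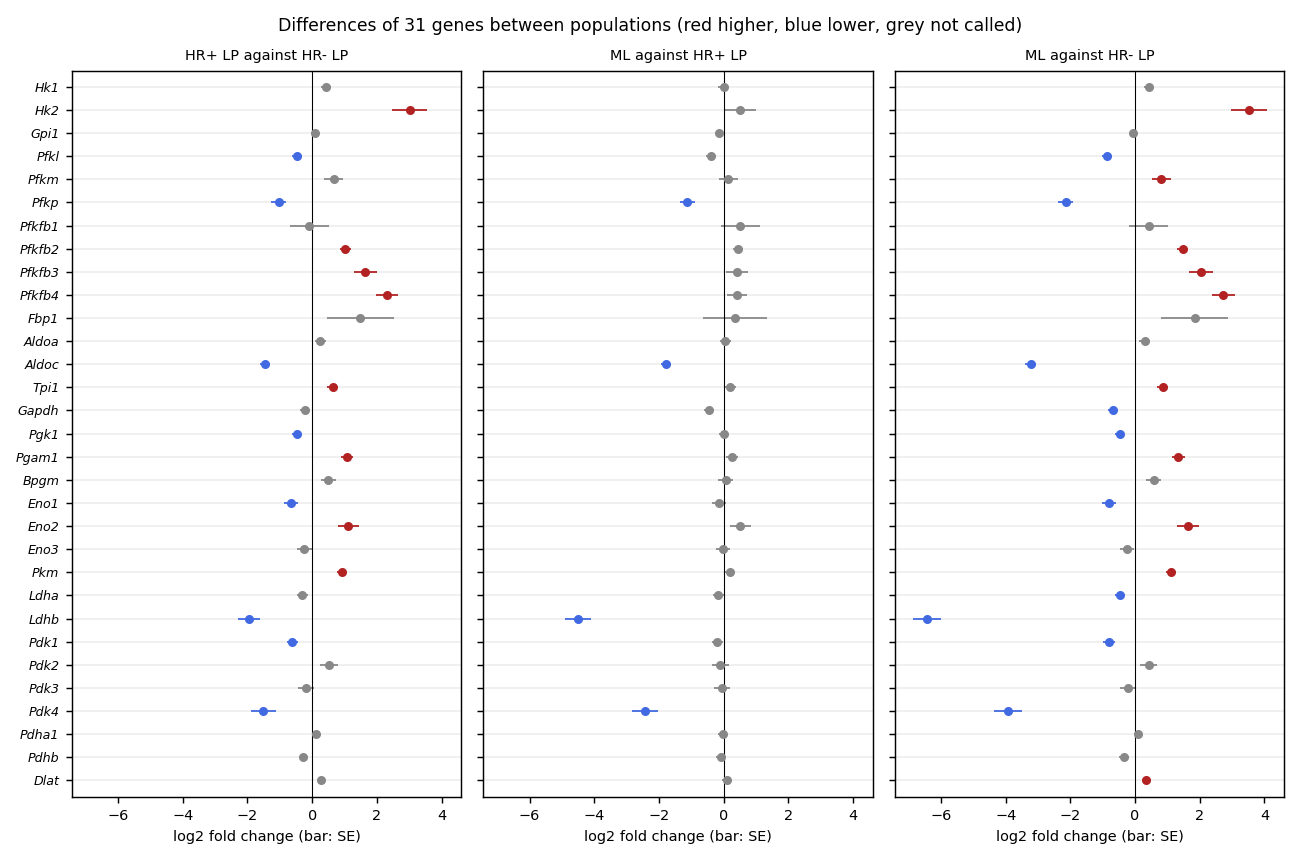
Log2 fold change of 31 tested genes (x axis; bars are SE) in the 3 comparisons, with genes in pathway order. Red and blue points passed an adjusted p of 0.05 upward and downward, and grey points did not. The outer panels hold 8 higher and 8 lower genes and 10 higher and 10 lower genes, and the middle panel holds 4 blue points and no red one; Fbp2, without a count in HR- LP, is left out.

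Hexokinase held the called gene that rose most, Hk2. Hk1 encodes the broadly expressed mitochondrion-bound form and Hk2 the insulin- and growth-responsive form. Hk2 was at 3.75, 13.3 and 27.2 CPM in the 3 HR- LP libraries, 86.9, 117 and 151 CPM in HR+ LP, and 128, 177 and 197 CPM in ML. Every HR- LP library lay below every other library, and replicate 1 was the lowest and replicate 3 the highest in each population. Hk2 was 8.10-fold higher in HR+ LP than in HR- LP (log2 3.02 ± 0.54 SE, adjusted p = 0.00186, edgeR) and 11.5-fold higher in ML (log2 3.52 ± 0.55, adjusted p = 3.71e-04). ML and HR+ LP overlapped (log2 0.50 ± 0.50, adjusted p = 0.847).

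Hk1 was at 194, 174 and 152 CPM, then 235, 257 and 212, then 230, 280 and 193, in the same order of populations. Its difference of 0.43 ± 0.16 (log2) between HR+ LP and HR- LP did not pass (adjusted p = 0.0680), nor did that of 0.43 between ML and HR- LP (adjusted p = 0.0517). Both lay near the threshold. The ML difference of Hk1 passed with DESeq2 (adjusted p = 0.0373), limma voom (0.0423), library totals (0.0123) and upper quartile factors (0.0376). With 1 library left out its adjusted p ranged from 0.0267 to 0.243, and that of the HR+ LP difference from 0.037 to 0.216. Per length of exon, Hk2 made up 6.72% ± 5.63, 29.1% ± 7.05 and 37.0% ± 7.57 (SD, n = 3) of hexokinase RNA in HR- LP, HR+ LP and ML. The ratio of Hk1 to Hk2 differed among populations (exact permutation test over the 9 libraries, adjusted p = 0.0236 over 22 isoenzyme pairs). Glucose phosphate isomerase, Gpi1, which follows hexokinase, had 152, 152 and 127 CPM in HR- LP, 156, 153 and 150 in HR+ LP and 139, 142 and 135 in ML. Its log2 differences lay between -0.14 and 0.09, and none passed the test.

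**Figure D2:**
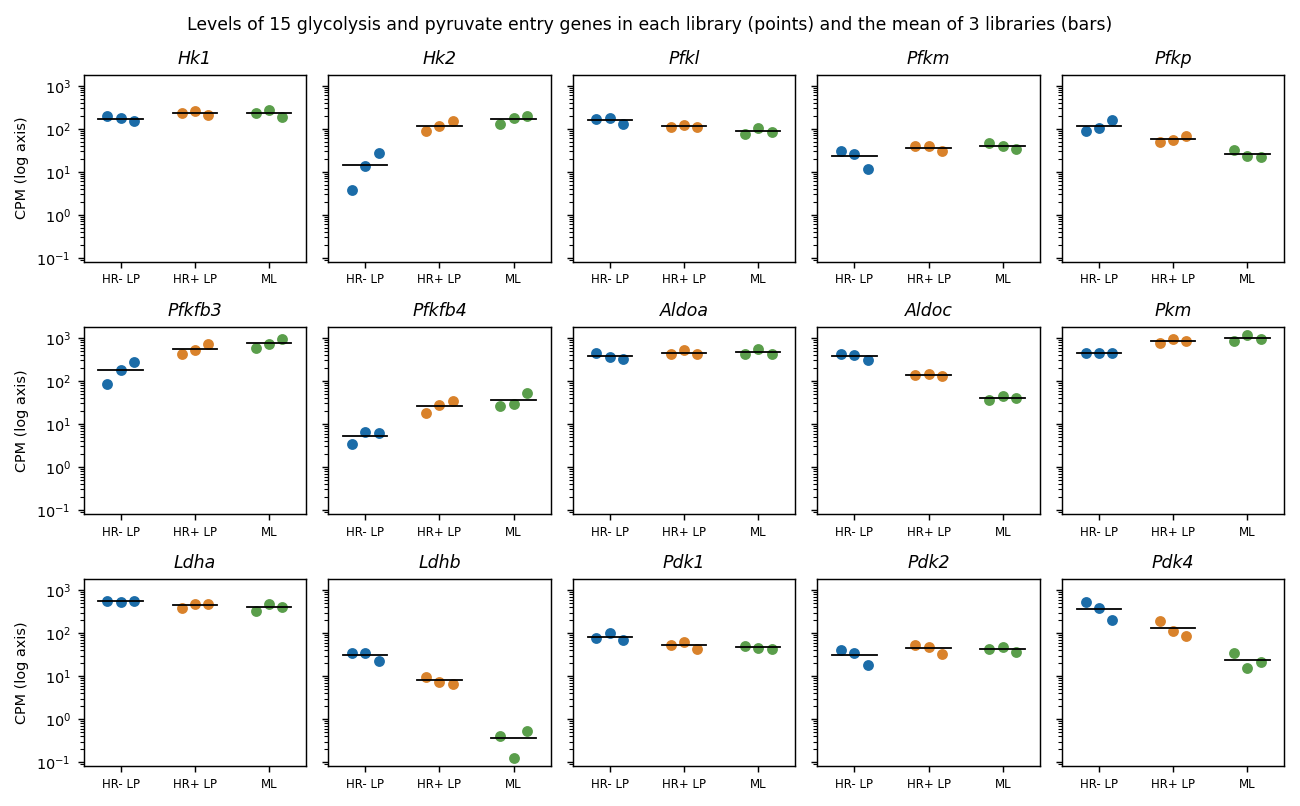
CPM (log axis) of 15 of the genes in each library (points, replicates 1 to 3 from left to right) of HR- LP, HR+ LP and ML, with the mean of 3 libraries as a bar. Hk2 separates HR- LP, from 3.75 to 27.2 CPM, from the other libraries, from 86.9 to 197 CPM. Ldhb falls from 22.9 to 35.1 CPM in HR- LP to 0.128 to 0.542 CPM in ML.

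At phosphofructokinase the isoenzymes moved apart. Pfkl is the liver-type, Pfkm the muscle-type and Pfkp the platelet-type subunit. Pfkp was at 88.4, 102 and 159 CPM in HR- LP, 48.8, 55.6 and 66.6 CPM in HR+ LP and 32.6, 23.6 and 22.3 CPM in ML, with no overlap between populations. It was 2.04-fold lower in HR+ LP than in HR- LP (log2 -1.03 ± 0.23, adjusted p = 0.00705, edgeR) and 2.18-fold lower in ML than in HR+ LP (log2 -1.13 ± 0.23, adjusted p = 0.0117). The latter call was lost without HR+ LP replicate 3 (adjusted p = 0.0537), ML replicate 2 (0.0666) or ML replicate 3 (0.0604). Pfkp shares 15.4% of its 50-base windows with Pitrm1, a mitochondrial peptidase gene that overlaps it, and the kit did not mark strand. Pitrm1 was lower in the same order, at means of 130, 75.2 and 50.5 CPM, and how reads of the shared stretch were counted was not tested.

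Pfkl was at 172, 179 and 132 CPM in HR- LP, 112, 124 and 112 CPM in HR+ LP and 76.4, 106 and 83.2 CPM in ML. It was 1.82-fold lower in ML than in HR- LP (log2 -0.87 ± 0.16, adjusted p = 0.00120, edgeR). The difference of -0.47 ± 0.16 in HR+ LP passed narrowly (adjusted p = 0.0466), and the call was lost on leaving out any library other than HR- LP replicate 3 or ML replicate 2 (adjusted p up to 0.139). Pfkm was at 30.0, 26.3 and 11.8 CPM in HR- LP, 38.9, 40.1 and 29.7 in HR+ LP and 46.2, 40.3 and 33.7 in ML, higher in ML than in HR- LP (log2 0.81 ± 0.29, adjusted p = 0.0416). That call was kept only without HR- LP replicate 1, HR+ LP replicate 3 or ML replicate 3 among the 9 libraries left out in turn (adjusted p up to 0.127), and Pfkm shares 8.83% of its windows with an antisense gene. Pfkl kept about the same share of the step, at 54.2%, 54.4% and 54.7%, while Pfkm went from 9.30% ± 3.98 through 20.7% ± 3.10 to 30.2% ± 3.73 and Pfkp from 36.5% ± 12.0 through 24.9% ± 4.0 to 15.1% ± 3.18. The log2 ratio of Pfkm to Pfkp was -2.42 ± 1.17, -0.66 ± 0.45 and 0.62 ± 0.14 (SD, n = 3), and all 3 pairs of the step differed among populations (exact permutation test, adjusted p = 0.0131 for Pfkl/Pfkm and Pfkm/Pfkp and 0.0393 for Pfkl/Pfkp). In HR- LP replicate 3 Pfkp made up 50.3% of the step, against 28.3% and 31.1% in replicates 1 and 2.

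Of the 4 enzymes that set fructose 2,6-bisphosphate, the strongest activator of phosphofructokinase, 3 rose from HR- LP to either other population. Each protein of this family holds a kinase that makes the compound and a phosphatase that removes it. Pfkfb3, whose product favours the kinase, was at 86.7, 181 and 278 CPM in HR- LP, 435, 526 and 743 CPM in HR+ LP and 598, 740 and 924 CPM in ML. It was 3.12-fold higher in HR+ LP than in HR- LP (log2 1.64 ± 0.36, adjusted p = 0.00620, edgeR) and 4.15-fold higher in ML (log2 2.05 ± 0.37, adjusted p = 9.29e-04). As for Hk2, replicate 1 was the lowest and replicate 3 the highest of each population.

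Pfkfb4 was at 3.41, 6.38 and 6.23 CPM, then 18.1, 28.3 and 33.8, then 26.2, 28.9 and 51.4, which put it 5.01-fold higher in HR+ LP (log2 2.32 ± 0.34, adjusted p = 5.76e-04) and 6.65-fold higher in ML (log2 2.73 ± 0.35, adjusted p = 8.10e-05) than in HR- LP. Pfkfb2 was at 63.5, 69.8 and 96.9 CPM, then 162, 144 and 162, then 201, 199 and 235, or 2.04-fold and 2.76-fold higher than in HR- LP (adjusted p = 0.00102 and 3.64e-05). For all of these, HR- LP did not overlap with either other population. None of them differed between ML and HR+ LP in the fit of all libraries. For Pfkfb2 that difference was 0.44 ± 0.16 (log2, adjusted p = 0.216), and it passed with only those populations in the fit (adjusted p = 0.0321). Pfkfb1, the liver and muscle gene, stayed between 0.723 and 2.01 CPM and did not pass in any comparison. Pfkfb3 was the main isoenzyme per length throughout, at 75.1% ± 7.21, 80.8% ± 2.71 and 80.9% ± 1.69 (SD, n = 3) of the step, and none of the 6 ratios within the family passed the exact permutation test (adjusted p from 0.0544 to 0.135).

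Fructose bisphosphatase, which runs the step in reverse for gluconeogenesis, was barely present. Fbp1 was at 0.161, 1.64 and 0.00 CPM in HR- LP and between 1.70 and 2.55 CPM in the other libraries, without passing the test (adjusted p = 0.310 and 0.177 against HR- LP). That result hung on HR- LP replicate 2, without which the adjusted p was 0.00624 in HR+ LP and 0.00219 in ML. Fbp2 had no count in HR- LP, counts of 38, 0 and 20 in HR+ LP and of 9, 3 and 5 in ML, and did not pass.

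Aldolase shifted in its makeup through a fall of Aldoc, while Aldoa did not pass in any comparison. Aldoa is the form of muscle and most other tissues and Aldoc the form best known from brain. Aldoc was at 423, 404 and 302 CPM in HR- LP, 135, 148 and 130 CPM in HR+ LP and 35.4, 45.4 and 39.3 CPM in ML. The 3 populations were well separated and in the same order as Cd14. Aldoc was 2.73-fold lower in HR+ LP than in HR- LP (log2 -1.45 ± 0.16, adjusted p = 7.67e-05, edgeR) and 3.44-fold lower again in ML (log2 -1.78 ± 0.16, adjusted p = 2.42e-05). Between ML and HR- LP the difference was 9.40-fold (log2 -3.23 ± 0.17, adjusted p = 1.45e-07).

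Aldoa, by contrast, was at 457, 365 and 326 CPM, then 415, 518 and 435, then 424, 558 and 434, with overlap in every comparison and log2 differences of 0.25, 0.05 and 0.30, none of which passed. Aldoc therefore made up 51.3% ± 2.57 of aldolase RNA per length in HR- LP, 24.5% ± 1.19 in HR+ LP and 8.36% ± 0.428 in ML (SD, n = 3). The log2 ratio of Aldoa to Aldoc was 0.02 ± 0.15, 1.72 ± 0.09 and 3.56 ± 0.08 (exact permutation test, adjusted p = 0.0131). The unadjusted value of 0.00357 is the smallest this design can give, and 3 libraries against 3 could not go below 0.10. Aldoc shares no 50-base window with another annotated gene.

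**Figure D3:**
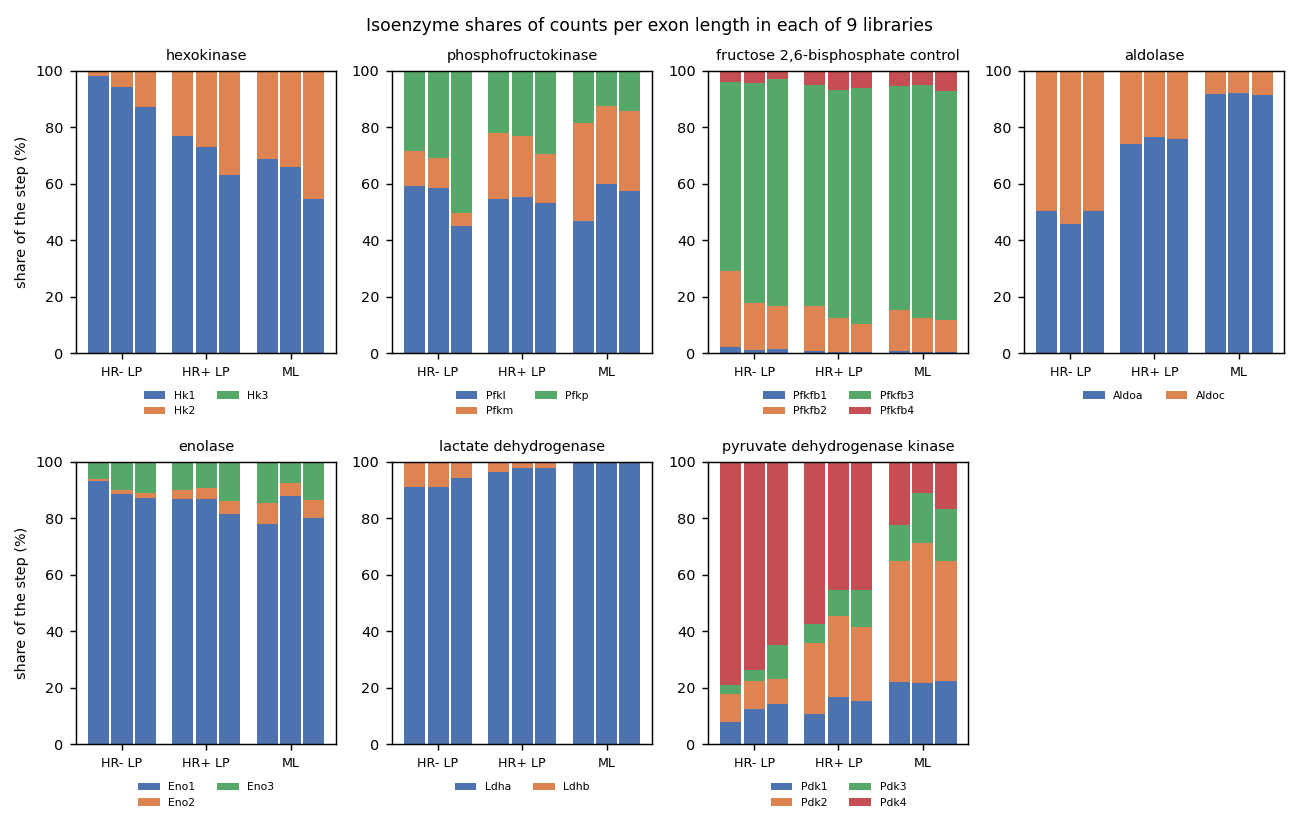
Share of each isoenzyme in its step (%, counts divided by exon length) in the 9 libraries, stacked to 100, for the 7 steps with several members and counts in every library. Aldoc goes from 51.3% through 24.5% to 8.36% on average and Pdk4 from 72.5% through 49.4% to 16.8%. Pfkl stays near 54% of its step, and the enolase shares leave out Eno1b.

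From triose phosphate to phosphoenolpyruvate the steps moved in opposite directions. Triose phosphate isomerase, Tpi1, was at 211, 176 and 147 CPM in HR- LP, 278, 297 and 257 CPM in HR+ LP and 311, 373 and 276 CPM in ML. It was 1.56-fold higher in HR+ LP (log2 0.64 ± 0.17, adjusted p = 0.0141, edgeR) and 1.80-fold higher in ML (log2 0.85 ± 0.17, adjusted p = 0.00169) than in HR- LP, and the former call was lost without HR+ LP replicate 2 (adjusted p = 0.0604). Phosphoglycerate mutase, Pgam1, was at 24.5, 22.4 and 28.4 CPM, then 47.5, 62.4 and 48.0, then 52.0, 81.0 and 56.6. It was 2.10-fold and 2.52-fold higher than in HR- LP (log2 1.07 ± 0.19 and 1.33 ± 0.20, adjusted p = 0.00203 and 2.26e-04). Bpgm, which makes 2,3-bisphosphoglycerate, had means of 16.7, 23.8 and 24.8 CPM and did not pass (adjusted p = 0.122 and 0.0643 against HR- LP).

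Glyceraldehyde phosphate dehydrogenase and phosphoglycerate kinase went the other way. Gapdh was at 41.8, 42.9 and 36.4 CPM in HR- LP, 30.3, 38.1 and 34.8 CPM in HR+ LP and 20.6, 28.5 and 25.7 CPM in ML. This gene, often used as a constant reference, was 1.62-fold lower in ML than in HR- LP (log2 -0.69 ± 0.16, adjusted p = 0.00505, edgeR). Pgk1 was at 35.5, 33 and 31 CPM, then 21.9, 25.6 and 23.7, then 22.3, 27.3 and 21.5. Its log2 difference was -0.48 ± 0.15 for either population against HR- LP (adjusted p = 0.0310 and 0.0218). The call for HR+ LP was lost without any library of HR+ LP or without HR- LP replicate 1 or 2 (adjusted p up to 0.125), and that for ML without ML replicate 1 (0.0784) or 3 (0.0919).

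The levels of Gapdh and Pgk1 are uncertain because much of their sequence exists elsewhere in the genome. Of the 50-base windows in annotated transcripts (GENCODE vM21), 58.4% for Gapdh were also present in other genes, 222 of them, of which 215 are pseudogenes. The shares were 68.0% for Pgk1, 49.5% for Eno1 and 41.5% for Pgam1, and these 4 were the genes at or above 40%. Smaller shares were found for Pdhb (30.3%), Pfkfb2 (25.0%), Gpi1 (24.5%), Pkm (23.7%) and Pdha1 (16.9%), and 12 of the 33 genes shared no window. Whether reads with several matches were counted is not given in the sources used here, and the part of such reads in these levels was not tested. Per kilobase of exon, Gapdh reached 32.7, 27.9 and 20.2 CPM, below Tpi1 (111, 173 and 200) and Ldha (285, 232 and 207).

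**Figure D4:**
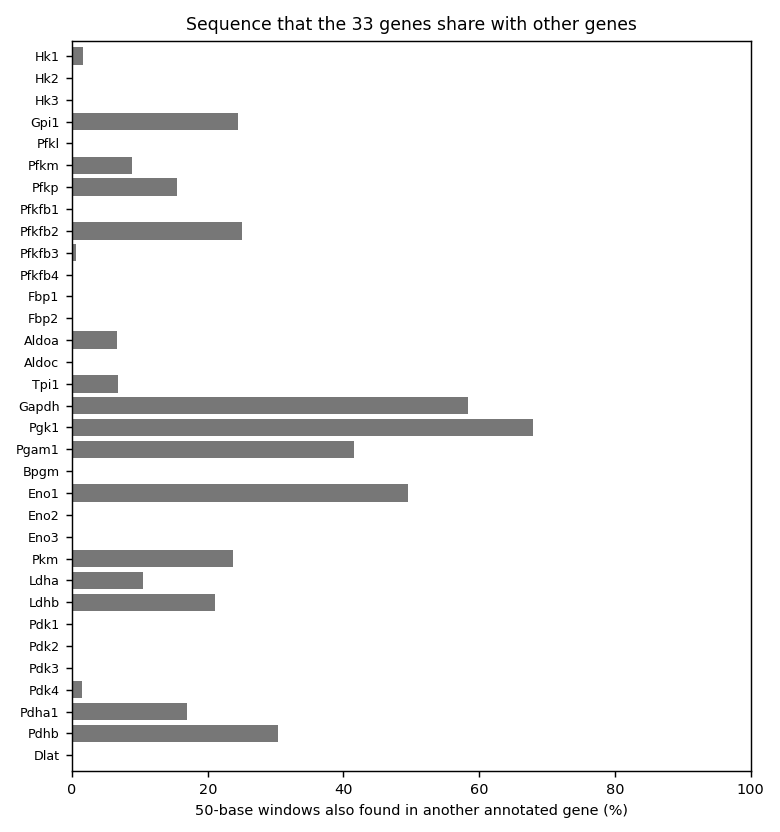
Percent of the 50-base windows of each of the 33 genes' annotated transcripts that also occur in a transcript of another gene (x axis), in pathway order. Pgk1 (68.0%), Gapdh (58.4%), Eno1 (49.5%) and Pgam1 (41.5%) stand above 40%, and 12 genes are at 0.

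Among the enolases, Eno1 is the common form, Eno2 the neuronal and Eno3 the muscle form. Eno2 was at 1.53, 2.69 and 3.47 CPM in HR- LP, 4.57, 5.82 and 6.28 CPM in HR+ LP and 8.74, 7.28 and 7.84 CPM in ML, without overlap. It was 2.17-fold higher in HR+ LP (log2 1.12 ± 0.33, adjusted p = 0.0243, edgeR) and 3.11-fold higher in ML (log2 1.64 ± 0.33, adjusted p = 0.00205) than in HR- LP. The former call was lost without HR+ LP replicate 2 (adjusted p = 0.0749) or replicate 3 (0.0827). Eno1 was at 178, 111 and 109 CPM, then 88.2, 89.3 and 73.3, then 64.5, 97.1 and 66.4, lower than in HR- LP by 0.66 and 0.80 on the log2 scale (values -0.66 ± 0.22 and -0.80 ± 0.22, adjusted p = 0.0423 and 0.0126). Without HR- LP replicate 1, its highest library, the difference of HR+ LP was -0.39 (adjusted p = 0.125). The HR+ LP call was kept only on leaving out HR- LP replicate 2 or 3 or ML replicate 2, and the ML call was lost without ML replicate 1 (0.0553) or 3 (0.0534).

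Eno1 shares 48.4% of its windows with Eno1b, a near copy counted as a gene of its own, which had means of 190, 142 and 119 CPM. Eno1b was lower in ML than in HR- LP (log2 -0.68 ± 0.21, adjusted p = 0.0244) and did not pass in HR+ LP (log2 -0.41 ± 0.21, adjusted p = 0.174). Summed, the copies were at 427, 284 and 256 CPM in HR- LP, 221, 247 and 210 in HR+ LP and 158, 244 and 182 in ML, so HR- LP stayed above the others. Eno3 had means of 10.7, 9.08 and 8.99 CPM and did not pass. Eno1 made up 89.7% ± 3.26, 85.2% ± 3.09 and 82.1% ± 5.21 of the step per length, and Eno2 1.29% ± 0.682, 3.86% ± 0.840 and 6.0% ± 1.39 (SD, n = 3). The ratios Eno1/Eno2 and Eno2/Eno3 differed among populations (exact permutation test, adjusted p = 0.0175 and 0.0131), and Eno1/Eno3 did not pass (0.526).

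Pyruvate kinase, Pkm, had the highest level per length of the set in HR+ LP and ML and was itself higher there. It was at 449, 454 and 451 CPM in HR- LP, 765, 947 and 864 CPM in HR+ LP and 851, 1160 and 927 CPM in ML. Every HR+ LP and ML library exceeded the HR- LP libraries, whose values were nearly equal. Pkm was 1.90-fold higher in HR+ LP (log2 0.93 ± 0.15, adjusted p = 9.81e-04, edgeR) and 2.17-fold higher in ML (log2 1.12 ± 0.15, adjusted p = 1.19e-04) than in HR- LP. Gene counts sum the M1 and M2 splice forms of Pkm, so these were not separated.

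Lactate dehydrogenase lost its minor subunit along the same order as aldolase C. Ldha encodes the subunit that favours lactate production and Ldhb the subunit typical of heart, which favours lactate use. Ldhb was at 35.1, 33.9 and 22.9 CPM in HR- LP, 9.76, 7.36 and 6.73 CPM in HR+ LP and 0.402, 0.128 and 0.542 CPM in ML, where the libraries held 12, 6 and 23 counts of it. It was lower in HR+ LP than in HR- LP (log2 -1.95 ± 0.33, adjusted p = 0.00145, edgeR) and far lower in ML than in HR+ LP (log2 -4.50 ± 0.41, adjusted p = 2.69e-05). The latter was the largest of the 32 differences between ML and HR+ LP.

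Ldha was at 547, 529 and 571 CPM, then 384, 483 and 476, then 323, 480 and 398. It was lower in ML than in HR- LP by a small margin (log2 -0.46 ± 0.16, adjusted p = 0.0416), a call kept only on leaving out HR+ LP replicate 1 or ML replicate 2, with an adjusted p of up to 0.157 without ML replicate 1. Ldha was thus the main subunit in all populations, and Ldhb fell from 7.72% ± 1.78 of the step per length through 2.66% ± 0.880 to 0.143% ± 0.0898 (SD, n = 3). The log2 ratio of Ldha to Ldhb was 4.19 ± 0.39, 5.82 ± 0.46 and 10.28 ± 1.28 (exact permutation test, adjusted p = 0.0131). Ldhb shares 21.0% of its windows with a processed pseudogene, and Ldha 10.4% with other genes.

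At the entry of pyruvate into mitochondria, the subunits Pdha1, Pdhb and Dlat differed by at most 0.35 in size on the log2 scale, while the makeup of its kinases differed strongly. Pdk4, the kinase induced by fasting and fatty acids, was at 519, 392 and 204 CPM in HR- LP, 190, 115 and 88.0 CPM in HR+ LP and 35.1, 15.9 and 21.8 CPM in ML. The populations did not overlap, although HR- LP replicate 3 came close to HR+ LP replicate 1. Pdk4 was 2.84-fold lower in HR+ LP than in HR- LP (log2 -1.51 ± 0.39, adjusted p = 0.0139, edgeR) and 5.40-fold lower again in ML (log2 -2.43 ± 0.40, adjusted p = 0.00249). Between ML and HR- LP the difference was 15.3-fold (log2 -3.94 ± 0.43, adjusted p = 2.49e-05). The call between HR+ LP and HR- LP was lost without HR+ LP replicate 2 (adjusted p = 0.0616) or replicate 3 (0.0542).

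Pdk1, the hypoxia-responsive kinase, was at 78.8, 98.9 and 67.8 CPM in HR- LP, 53.1, 63.6 and 43.9 in HR+ LP and 51.6, 45.8 and 43.3 in ML. Its log2 differences from HR- LP were -0.61 ± 0.18 and -0.80 ± 0.18 (adjusted p = 0.0236 and 0.00370, edgeR). The HR+ LP call was lost without HR- LP replicate 2 (0.0906), HR+ LP replicate 1 (0.0747) or HR+ LP replicate 3 (0.0993). Pdk2, with means of 31.3, 45.0 and 42.1 CPM, and Pdk3, with 15.4, 13.6 and 13.2 CPM, did not pass. As a share of kinase RNA per length, Pdk4 went from 72.5% ± 7.32 through 49.4% ± 7.01 to 16.8% ± 5.69, and Pdk2 from 9.45% ± 0.471 through 26.7% ± 1.87 to 45.0% ± 4.09 (SD, n = 3). The log2 ratio of Pdk2 to Pdk4 was -3.55 ± 0.09, -1.49 ± 0.28 and 0.86 ± 0.63 (exact permutation test, adjusted p = 0.0131). Pdk1/Pdk2, Pdk1/Pdk4 and Pdk3/Pdk4 also differed (adjusted p = 0.0393, 0.0175 and 0.0175), and Pdk1/Pdk3 and Pdk2/Pdk3 did not pass (0.405 and 0.543).

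Of the subunits of the complex, Pdha1, the catalytic alpha subunit, had means of 180, 195 and 191 CPM, and Pdhb, its beta partner, 68.7, 56.8 and 54.0 CPM, and neither passed in any comparison. Dlat, the acetyltransferase, was at 50.3, 41.7 and 48.9 CPM in HR- LP, 60.8, 55.9 and 52.6 CPM in HR+ LP and 59.7, 58.6 and 61.4 CPM in ML. It was 1.28-fold higher in ML than in HR- LP (log2 0.35 ± 0.13, adjusted p = 0.0414, edgeR), the smallest difference called among the 32 genes in this comparison. The call was kept only without HR- LP replicate 1 or 3 among the 9 libraries left out in turn (adjusted p up to 0.121). Dld, the dihydrolipoamide dehydrogenase that this complex shares with others and that is not among the 33 genes, was lower in ML than in HR- LP (log2 -0.38 ± 0.12, adjusted p = 0.0288) and did not pass in HR+ LP (log2 -0.35 ± 0.12, adjusted p = 0.0536).

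Over all steps, 12 of 22 isoenzyme pairs had ratios that differed among populations by the exact permutation test. Pairs of a step share genes, so these are not separate results. How often ratios of other gene pairs would differ was not tested, so the count is a description. A ratio of counts within a library does not depend on how libraries are scaled. The 12 were all in the hexokinase, phosphofructokinase, aldolase, enolase, lactate dehydrogenase and pyruvate dehydrogenase kinase steps. Left out one at a time, the libraries gave counts of 9 to 13 pairs. With assignments permuted only within replicate numbers, 0 pairs passed, since the smallest p that 216 assignments allow is 0.0278, which 11 pairs reached. The mean shares of Hk2, Pfkm, Aldoc, Eno2, Ldhb and Pdk4 in HR+ LP lay between those in HR- LP and ML.

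Transport of glucose and lactate, at the start and end of the route, fell in part. Of 11 tested transport genes, 1 was higher and 3 lower in HR+ LP than in HR- LP (median log2 fold change -0.09). The shares of all tested genes were 17.2% and 12.8%. In ML against HR+ LP 2 were lower (median -0.16), where 6.70% of all tested genes were. Slc2a1, the widespread glucose carrier GLUT1, was at 336, 488 and 768 CPM in HR- LP, 174, 229 and 336 CPM in HR+ LP and 100, 134 and 119 CPM in ML. It was 2.15-fold lower in HR+ LP (adjusted p = 0.0178, edgeR) and 4.51-fold lower in ML (adjusted p = 1.91e-04) than in HR- LP, opposite in direction to Hk2. The HR+ LP call was lost without HR- LP replicate 3 (0.0618), HR+ LP replicate 1 (0.0718) or HR+ LP replicate 2 (0.0708). Between ML and HR+ LP the log2 difference of -1.07 ± 0.30 did not pass (adjusted p = 0.0666), but with the replicate block it did in the same direction (adjusted p = 0.00545). It also passed with DESeq2 (0.0117), without the filter on low counts (0.0344) and with only those populations in the fit (0.0164). Library totals (0.0604), upper quartile factors (0.0850) and limma voom (0.0630) did not call it. With 1 library left out the adjusted p ranged from 0.0226 to 0.298. Slc5a1, a sodium-coupled glucose carrier, went from 69.1 to 119 CPM through 29.6 to 37.6 CPM to at most 0.301 CPM in ML. Slc16a7, a pyruvate and lactate carrier, had means of 5.81, 2.5 and 0.164 CPM. Both were lower in every comparison (largest adjusted p = 0.0439). Slc2a3, another glucose carrier, was added after its values were seen and went the other way. It was at most 0.537 CPM in HR- LP, 3.67 to 7.48 CPM in HR+ LP and 5.69 to 8.34 CPM in ML.

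Neighbouring routes that draw on glucose 6-phosphate or make NADPH also held called genes. Over all tested genes, 17.2% were higher and 12.8% lower in HR+ LP than in HR- LP. For ML against HR- LP these shares were 23.3% and 21.3%. In the pentose phosphate pathway 4 of 10 tested genes were higher and 2 lower in HR+ LP than in HR- LP (median 0.36), and 5 higher and 2 lower in ML than in HR- LP (median 0.52). G6pdx, its entry enzyme, was at 33.9, 21.8 and 34.1 CPM, then 129, 177 and 150, then 148, 248 and 198, or 5.08-fold and 6.62-fold higher than in HR- LP (adjusted p = 4.16e-05 and 4.41e-06). Among 10 glycogen genes, 3 were higher and 2 lower in HR+ LP than in HR- LP (median 0.27). Pgm2, a phosphoglucomutase, was 3.78-fold higher there and Pygm, the muscle glycogen phosphorylase, 2.29-fold lower. In ML against HR- LP 2 of the 10 were higher and 2 lower (median 0.31), near the shares of all tested genes. Lalba, the milk protein that directs lactose synthesis, was 3.93-fold lower in HR+ LP than in HR- LP (adjusted p = 0.00182), with means of 71.0, 18.1 and 0.0739 CPM.

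Other genes of glycolysis and pyruvate use were read against the 17.2% of all tested genes that were higher and the 12.8% that were lower in HR+ LP than in HR- LP. Of 11 other glycolysis genes tested, 5 were higher in HR+ LP than in HR- LP and the other 6 did not pass (median 0.52). Tigar, a fructose bisphosphatase-like regulator, had means of 0.921, 8.97 and 11.1 CPM. Of 12 other pyruvate entry genes 2 were higher and 1 lower in HR+ LP than in HR- LP (median 0.11), with Pck2, the mitochondrial PEP carboxykinase, 2.10-fold higher and Me1, the cytosolic malic enzyme, 1.79-fold lower. In ML against HR- LP 4 of the 12 were higher and 3 lower (median 0.05), where 23.3% and 21.3% of all tested genes were. Of 18 tricarboxylic acid cycle genes 4 were higher and the other 14 did not pass (median 0.25), among them Idh3a, 1.77-fold higher (adjusted p = 7.25e-04). In ML against HR- LP 6 of the 18 were higher and 1 lower (median 0.36).

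Regulators of the pathway were called lower more often than higher. Of 17 tested, 1 was higher and 5 lower in HR+ LP than in HR- LP (median -0.43), against 17.2% and 12.8% of all tested genes. In ML against HR+ LP 4 were lower (median -0.24), against 6.70%. In ML against HR- LP 3 were higher and 9 lower (median -0.66), against 23.3% and 21.3%. Egln3, an oxygen-sensing prolyl hydroxylase, was at 121, 138 and 93.8 CPM, then 43.5, 41.8 and 35.1, then 7.64, 5.04 and 5.44. Foxo1, a factor restrained by insulin signalling, had means of 167, 74.9 and 37.9 CPM, and Mlxip, a glucose-sensing factor, 360, 188 and 94.2 CPM. Egln3, Foxo1 and Mlxip were lower in all 3 comparisons (largest adjusted p = 0.0134). Hif1a, the oxygen-regulated subunit of hypoxia-inducible factor 1, went the other way and was singled out after its values were seen. It was at 83.6, 144 and 157 CPM in HR- LP, 355, 546 and 520 CPM in HR+ LP and 465, 877 and 743 CPM in ML, and HR- LP did not overlap with the others. It was 3.70-fold higher in HR+ LP (log2 1.89 ± 0.29, adjusted p = 7.47e-04, edgeR) and 5.43-fold higher in ML (log2 2.44 ± 0.30, adjusted p = 5.71e-05) than in HR- LP, and did not pass between ML and HR+ LP (log2 0.55 ± 0.28, adjusted p = 0.473). Of 15 targets of hypoxia-inducible factors outside glycolysis, 5 were higher and 2 lower in HR+ LP than in HR- LP (median 0.34). Bnip3, a mitophagy receptor, was 2.65-fold higher (adjusted p = 0.00821) and Car12, a carbonic anhydrase, 4.35-fold lower (adjusted p = 6.56e-04). In ML against HR- LP 6 of the 15 targets were higher and 5 lower (median 0.21), against 23.3% and 21.3% of all tested genes. The summed level of the 15 was 1070 to 1681 CPM in HR- LP, 892 to 1257 in HR+ LP and 825 to 1033 in ML.

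Genes induced by tissue dissociation moved with the populations as well. Of 13 immediate early and heat shock genes tested, 8 were lower in HR+ LP than in HR- LP (median -0.69). In ML 7 were lower than in HR+ LP (median -0.81) and 9 lower than in HR- LP (median -1.45). The shares of all tested genes lower in these comparisons were 12.8%, 6.70% and 21.3%. Their summed level ranged from 33782 to 53629 CPM in HR- LP, from 28508 to 34425 CPM in HR+ LP and from 15917 to 23518 CPM in ML, with replicate 3 the lowest in each. Nr4a1, an immediate early nuclear receptor, had means of 1371, 615 and 189 CPM. Aldoc, Ldhb, Pdk4 and Pfkp fell in the same order of populations, and the part of the dissociation response in those differences was not tested.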

How the data were processed

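Messenger RNA was sequenced in 9 libraries from 3 sorted luminal populations, from DNase-treated total RNA and with a TruSeq kit (RNA Library Prep v2), per the labels' protocols. Strand information is lost in that preparation. Values deposited by the authors were raw read counts for each gene, tied to featureCounts and mm10 by the submitters' processing notes, with an exon length for each gene. The aligner, the annotation and whether multiply matching reads were counted are not given in the sources used here. Gene IDs were matched to RefSeq symbols for 25275 of 27179 genes.

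Genes were filtered with edgeR's filterByExpr, scaled by TMM factors and compared between populations with edgeR's quasi-likelihood F test on all 9 libraries without covariates. Benjamini-Hochberg adjustment ran over all 15910 tested genes, and an adjusted p below 0.05 was called. SE was derived as the absolute log2 fold change divided by the square root of the F statistic, so it restates the test. Levels are TMM-scaled CPM computed from the deposited counts, and levels and shares per length divide them by the deposited exon length. Log2 ratios of isoenzymes in a step, with 0.5 counts added, were compared over populations by an exact permutation test of the F statistic, which covers differences in any direction. Depth of 27219103 to 108119756 counts left counting error small above a few CPM. The procedure was tested on simulated data. Tools were Python 3.11.15 with pandas 2.3.3, and edgeR 4.0.16, DESeq2 1.42.0 and limma 3.58.1 in R 4.3.3.

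Genes given library by library were those called with an absolute log2 fold change over 1 and the isoenzyme of each step highest per length, and some others were added after their values were seen. Up to 3 genes with the smallest p were named from each neighbouring list, and a gene so named is not reported here. Members and lists were chosen with earlier results of these data known. Alternatives were other normalizations, tests and filters, a fit of only the populations compared, a replicate block and leaving out each library.

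Replicate numbers come from the sample titles, which do not say what they mark. Between HR+ LP and ML, libraries with the same number had deviations from their group means that correlated at 0.183, 0.121 and 0.189 across genes. By these data alone the numbers were taken to pair them, but only for the replicate block, and the main tests did not use it. Values for libraries with different numbers are not given here, so this pairing is not settled either. For HR+ LP and HR- LP the values were 0.133, 0.0389 and 0.147, and for ML and HR- LP 0.0526, 0.0254 and 0.0849. The lowest of each, 0.0389 and 0.0254, lay below 0.121, and no pairing with HR- LP was taken. The values 0.133 and 0.147 lay within the range of HR+ LP and ML, so a pairing with HR- LP is not settled.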

Additional observations from a re-analysis of the deposited data

How the results depend on the processing

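Of 69 fold changes of 23 genes, 36 were called, and 26 of these were called under every alternative run. Of 1170 alternative values, 1073 kept direction and call, 50 lost the call, 21 gained it and 26 changed sign, 0 of them among called results. Genes lower in HR+ LP than in HR- LP numbered 8, but 4 with library totals alone, 5 with only the compared populations in the fit, and 3 to 8 when 1 library was left out. Over the whole table, lower genes numbered 2033, but 1535 with library totals alone and 1739 with only the compared populations. They numbered 1211 to 2290 when 1 library was left out. Genes higher in ML than in HR+ LP numbered 0, but 1 (Pfkfb2) with only those populations in the fit. With the replicate block, counts of higher and lower genes were 12 and 8 for HR+ LP against HR- LP, 0 and 4 for ML against HR+ LP, and 13 and 11 for ML against HR- LP, and it changed no call of the 23 genes between ML and HR+ LP. Hk1 and Bpgm then passed against HR- LP (adjusted p = 0.0171 and 0.0231 in HR+ LP, edgeR). Permuted within the replicate block, 0 isoenzyme pairs passed against 12, since 216 assignments allow no p below 0.0278, which 11 pairs reached. The sign changes were small. For ML against HR+ LP, Hk1, Pgk1 and Pdha1 turned to 0.03, 0.03 and 0.00 (log2) with DESeq2, 0.05, 0.05 and 0.02 with library totals and 0.06, 0.06 and 0.03 with upper quartile factors. Pgk1 turned to 0.01 with limma voom and to 0.00 with only those populations, and with a CPM over 1 in 3 libraries Hk1 and Pgk1 turned to 0.00. Gpi1 in ML against HR- LP turned to 0.11 with library totals. With 1 library left out, ML against HR+ LP ranged from -0.15 to 0.12 for Hk1, -0.11 to 0.06 for Pgk1, -0.03 to 0.21 for Bpgm and -0.08 to 0.15 for Aldoa, and Pdha1 in ML against HR- LP from 0.00 to 0.18. Without division by length 31 of 60 shares moved by more than their SD. With no filter beyond 1 count, 6 in place of 8 genes were lower in HR+ LP, and 1918 in place of 2033 over the whole table.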
